A study of Caenorhabditis elegans with 11 samples.

Results

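The comparison described here sets worms exposed to high oxygen with skn-1 RNA interference (RNAi), which lowers a transcript through matching double-stranded RNA, against worms in the same oxygen without it, across all genes of the array. Samples were chosen by their labels alone. They were 7 of the 11 samples of a study of Caenorhabditis elegans on the Affymetrix C. elegans Genome Array, 1 array per sample of total RNA from whole worms. The skn-1 RNAi with oxygen group had 3 samples: sterile hermaphrodites, 3 days old, grown at 25°C since they were first-stage larvae, with RNAi against skn-1 and then 6 hours at 20°C in oxygen of 99% under 40 PSI. The oxygen group (n = 4) had the same age, culture and exposure but no RNAi. A control group of 4 untreated samples entered the fit and places the levels. The sample labels name the strain TJ1090 for all groups, whereas the design text names TJ1060. The labels say neither how RNAi was given nor which bacteria each group ate, and worms with RNAi against another target are not analysed here. RNAi against skn-1 and anything else that went with the RNAi treatment therefore cannot be told apart. Separate cultures are not mentioned in the labels, and the p-values below then reflect only how far these samples differ, which may be technical.

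SKN-1 is a transcription factor related to mammalian Nrf proteins. In unstressed worms the WDR-23 ubiquitin ligase adaptor keeps its level low. Under oxidative stress it accumulates in nuclei of the intestine and switches on enzymes of glutathione synthesis and of xenobiotic conjugation, above all glutathione S-transferases (GSTs), which attach glutathione to reactive molecules. Earlier in development SKN-1 specifies the fate of the cells that form the gut. The question addressed is which transcripts differ with skn-1 RNAi while worms are under oxygen. No group had skn-1 RNAi without oxygen. Differences that need oxygen and differences present without it therefore cannot be told apart.

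The deposited values are MAS5 signals, linear intensities with 1 value per probe set, and 15389 probe sets for 11657 genes were tested. Oxygen 1 and 2, together with control 1 and 2, had been scaled to a lower trimmed mean (207 to 216, against 250 on the other 7 arrays) and held signal for poly-A spike-in transcripts. They are called set 1 here, and all skn-1 RNAi arrays lay in set 2. Of the tested probe sets, 6828 differed between the sets with group in the fit, so values from a fit with the set as a block, and values against oxygen 3 and 4 alone, are given beside those over all arrays. The median of all probe sets was 0.22 on the log2 scale against all 4 oxygen arrays, 0.02 in the fit blocked by set and 0.01 against oxygen 3 and 4. The skn-1 RNAi arrays resembled each other closely, with mean correlations of 0.953 to 0.956 to their own group, whereas the oxygen arrays had 0.854 to 0.886. The oxygen arrays span both sets and the RNAi arrays only set 2, so the difference between sets enters this comparison. In whole worms, fewer cells of a type and less RNA per cell cannot be told apart.

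The targeted gene was examined first. The first of its 3 probe sets, which may read several transcripts (its name ends in _s_at), read 235, 371 and 435 in skn-1 RNAi arrays, against 488, 417, 681 and 455 in oxygen arrays. The groups overlapped in a single pair, since RNAi 3 exceeded oxygen 2. The difference was −0.58 ± 0.31 (log2, SE), and −0.73 ± 0.35 against oxygen 3 and 4, and neither passed the test (limma adjusted p = 0.547 and 0.348). The second probe set read 263, 386 and 285 with RNAi and 276, 286, 629 and 469 in oxygen, and the third 256, 345 and 398 against 132, 75.7, 372 and 505. Both of these were lower in set 1 oxygen arrays than in set 2. The second differed by −0.35 over all arrays, by −0.92 when blocked by set (adjusted p = 0.11) and by −0.82 against oxygen 3 and 4. The third probe set had a difference of 0.65 ± 0.81 over all arrays that turned to −0.41 ± 0.28 against oxygen 3 and 4. With the set as a block, and against oxygen 3 and 4, all 3 probe sets were lower with RNAi, and none of these differences passed the test. It is not given which part of the gene the RNAi matched, and probes inside that part can also read introduced RNA. The GST gene gst-4, which the study also followed with a GFP reporter, read 1054, 1823 and 844 with RNAi, against 4264, 4702, 3978 and 5171 in oxygen and 211, 332, 774 and 146 in control. All RNAi values of gst-4 lay below all oxygen values and above all control values. The difference from oxygen of −1.94 ± 0.50 missed the threshold (limma adjusted p = 0.258), as did that of −1.95 from oxygen 3 and 4 (adjusted p = 0.141).

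A probe set is called here when its limma p, adjusted by Benjamini-Hochberg over all 15389 probe sets, was under 0.05. With skn-1 RNAi 28 probe sets were lower (0.182% of those tested) and 7 were higher (0.0455%) than in oxygen worms, against 1503 of either direction at an unadjusted p under 0.05. The 28 stood for 23 named genes and 2 probe sets that match several genes, and the 7 for 7 genes. Log2 differences of called probe sets ran from −5.66 to −1.35 and from 2.18 to 3.93. In each of the 35 the 3 RNAi values lay wholly outside the range of the 4 oxygen values, a pattern that 801 probe sets (5.21%) showed downward and 1847 (12%) upward. With each array centred on its median the counts were 26 and 2, and spe-18 was the single gene of the 7 increases that kept its call. The centred adjusted p of the others was 0.0725 in gsto-1, 0.107 in ctsa-4.1, 0.142 in hrg-1, 0.183 in hrg-7, 0.214 in hrg-4 and 0.334 in tag-10, with log2 differences of 1.97 to 3.71. Blocking by set gave 88 lower (0.572%) and 28 higher (0.182%), all 35 among them. Against oxygen 3 and 4 alone 10 were lower (0.065%) and 8 higher (0.052%). All 35 kept their direction there, and 8 kept their call: asp-14, gst-13, gst-38, srh-2, gsto-1, spe-18, tag-10 and a probe set that matches both clec-2 and clec-3. Leaving out any 1 of the 11 arrays kept the call of 15 probe sets, 12 lower and 3 higher.

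**Figure D1:**
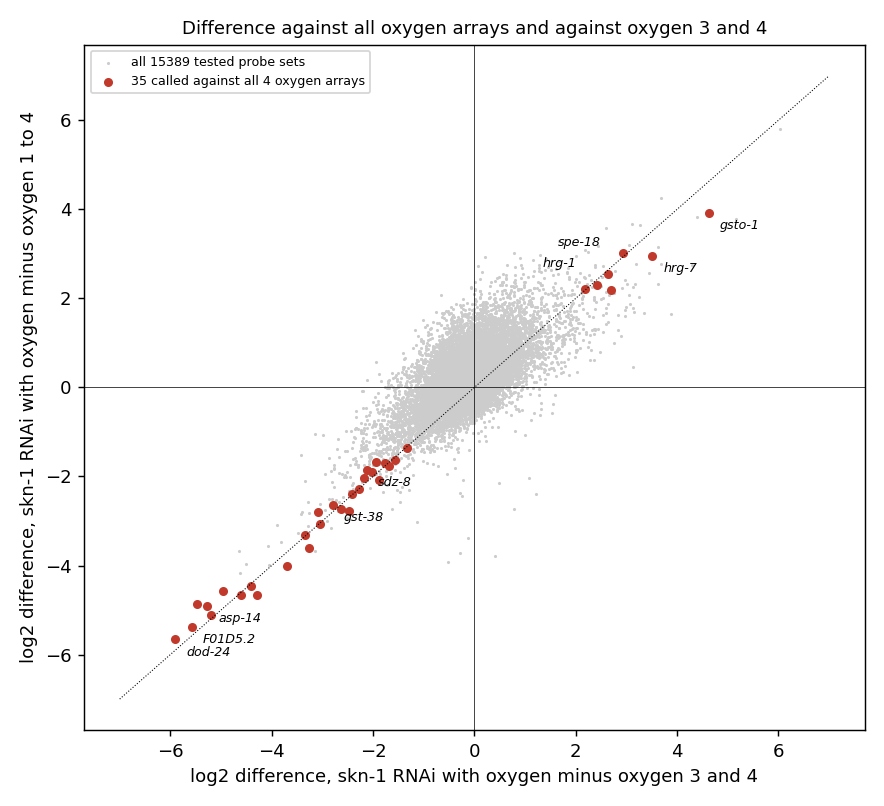
Log2 difference of skn-1 RNAi with oxygen minus oxygen for 15389 probe sets, against oxygen 3 and 4 alone on the horizontal axis and against all 4 oxygen arrays on the vertical axis. Red points are the 35 called probe sets, which lie close to the dotted line of equality and keep their direction on both axes. Differences of probe sets with a dim group, such as F01D5.2 and spe-18, are fitted values and do not measure a fold.

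Among the phase II enzymes, 3 of the 31 tested cytosolic GST genes were lower with skn-1 RNAi and none was higher, against 0.197% and 0.0515% of all genes. In gst-38 the signals were 93, 103 and 115 in RNAi worms, against 626, 537, 749 and 684 in oxygen worms and 177, 193, 155 and 148 in control worms. Every RNAi array of gst-38 lay below every control array too, though RNAi worms were not called against control (adjusted p = 0.102). The gene fell 6.23-fold (log2 −2.64 ± 0.21, adjusted p = 0.000963) and 6.92-fold against oxygen 3 and 4, and it remained called under each of the 24 alternatives run. In gst-13 the RNAi arrays read 226, 317 and 311, against 1574, 1648, 2033 and 2793 in oxygen and 332, 353, 613 and 328 in control. RNAi values of gst-13 thus all lay below those of untreated worms, though narrowly (317 against 328) and without a call (adjusted p = 0.383). They were 6.96-fold below oxygen (log2 −2.80 ± 0.30, adjusted p = 0.00494) and 8.46-fold below oxygen 3 and 4. The third gene, gst-32, was dim throughout except under oxygen without RNAi, with 0.8, 6.5 and 1 in RNAi worms, 32.9, 61.9, 45.6 and 39.1 in oxygen and 0.9 to 4 in control. Its RNAi and control arrays lay below the 40th percentile of their arrays, so that the decrease is a lower bound, at least 1.16-fold (adjusted p = 0.0346). The gene entered the test only through its oxygen arrays. Its direction was thus partly fixed by the filter, and its call adds no support to the count of the list. That call was lost under 15 of the 23 alternatives in which gst-32 was tested.

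The rest of the GST family lay mostly below oxygen as well. The median over the 31 genes was −0.72, against 0.19 for all 11657 genes, and −0.64 against 0.00 in the blocked fit. In 13 of them all RNAi arrays lay below all oxygen arrays (5.67% of all genes did so), and in 1 they lay above (10.7%). In the blocked fit, which called 0.635% of all genes lower and 0.163% higher, 4 further members were called lower: gst-10, gst-14, gst-12 and gst-39. In gst-10 the RNAi arrays read 448, 853 and 728 against 1986, 2564, 2231 and 1951 in oxygen, and control read 545 to 1074. The RNAi signals of gst-14 were 12, 38 and 12 against 76, 102, 133 and 87 in oxygen, and those of gst-12 were 90.9, 239 and 137 against 453, 413, 650 and 601. Unlike gst-10, both of these kept RNAi values above nearly all or all control values, which were 4.1 to 9.7 in gst-14 and 28.8 to 106 in gst-12. Like gst-32, gst-14 entered the test only through its oxygen arrays. GST genes are close relatives, and a probe set may read several of them.

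The opposite direction was seen in gsto-1, an omega-class glutathione transferase. It read 917, 1451 and 1130 in RNAi worms, 117, 128, 34 and 63.2 in oxygen worms and 135, 75.6, 76 and 75.7 in control worms. Oxygen and control arrays of gsto-1 overlapped, and every RNAi array stood far above both. The increase was 15.2-fold (log2 3.93 ± 0.45, adjusted p = 0.00562) and 24.7-fold against oxygen 3 and 4 (adjusted p = 0.0443). The other tested omega-class gene, gsto-3, differed by 0.49 and was not called.

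Of the other detoxification families, none of 50 UDP-glucuronosyltransferase genes, which attach glucuronic acid to substrates, was called in either direction. Their median was −0.48 (−0.74 in the blocked fit). All RNAi arrays lay below all oxygen arrays in 9 of these (5.67% of all genes) and above them in 0 (10.7%). In ugt-13 the RNAi arrays read 109, 248 and 145 against 337, 324, 682 and 527 in oxygen, and in ugt-58 577, 581 and 442 against 1248, 1063, 1198 and 1026. The adjusted p of ugt-13 was 0.304 over all arrays and 0.0582 in the blocked fit, and that of ugt-58 was 0.153 and 0.0619, so neither passed. Cytochrome P450 genes, oxidising enzymes of the first phase of detoxification, had 0 calls among 52. One of them, cyp-13A5, read 434, 395 and 406 with RNAi, against 44.4, 133, 14.4 and 9.2 in oxygen and 21 to 34.2 in control. Its oxygen arrays were widely spread, higher in set 1, and its difference of 3.79 ± 0.75 missed the threshold (adjusted p = 0.101). It was called in the blocked fit (4.56, adjusted p = 0.0121) and against oxygen 3 and 4 (5.16, adjusted p = 0.0182). Its oxygen 3 and 4 signals lay below the 40th percentile of their arrays, so 5.16 does not measure a fold.

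A list of 19 genes named as SKN-1 targets in other work held 3 called decreases, gst-38, gst-13 and sdz-8, and no increase, against 0.197% and 0.0515% of all genes. Both gst-38 and gst-13 were already counted among the GSTs, so the lists are not separate support. The lists were also chosen with earlier results of these data known. Its median was −0.70 (−0.80 in the blocked fit and −0.98 against oxygen 3 and 4). All RNAi arrays lay below all oxygen arrays in 9 of the 19 (5.67% of all genes) and above them in 0 (10.7%). The name of sdz-8 records dependence on SKN-1 in embryos. It read 271, 427 and 403 in RNAi worms, 1040, 1122, 1458 and 1672 in oxygen worms and 54.1, 61.7, 83.8 and 92.8 in control worms. These 3 groups did not overlap, and RNAi worms lay between the other groups. The decrease from oxygen was 3.61-fold (log2 −1.85 ± 0.29, adjusted p = 0.0339), and that call held in 2 of the 11 fits with 1 array left out, those without control 1 or control 4, with adjusted p up to 0.205 in the others. Against oxygen 3 and 4 sdz-8 differed by −2.12 (adjusted p = 0.0796). F56D5.3, on the same list, read 52.1, 63.9 and 63.1 with RNAi against 486, 518, 501 and 399 in oxygen and 8 to 48.9 in control. Its difference of −2.99 ± 0.55 was called in the blocked fit (−3.45, adjusted p = 0.0209) and against oxygen 3 and 4 (−2.91, adjusted p = 0.0421) but not over all arrays without a block (adjusted p = 0.0812). For gcs-1, the enzyme of the first step of glutathione synthesis, RNAi arrays read 984, 985 and 777 and oxygen arrays 1261, 1175, 1463 and 2206. The gcs-1 groups did not overlap, and the difference of −0.70 ± 0.27 missed the threshold (adjusted p = 0.465).

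**Figure D2:**
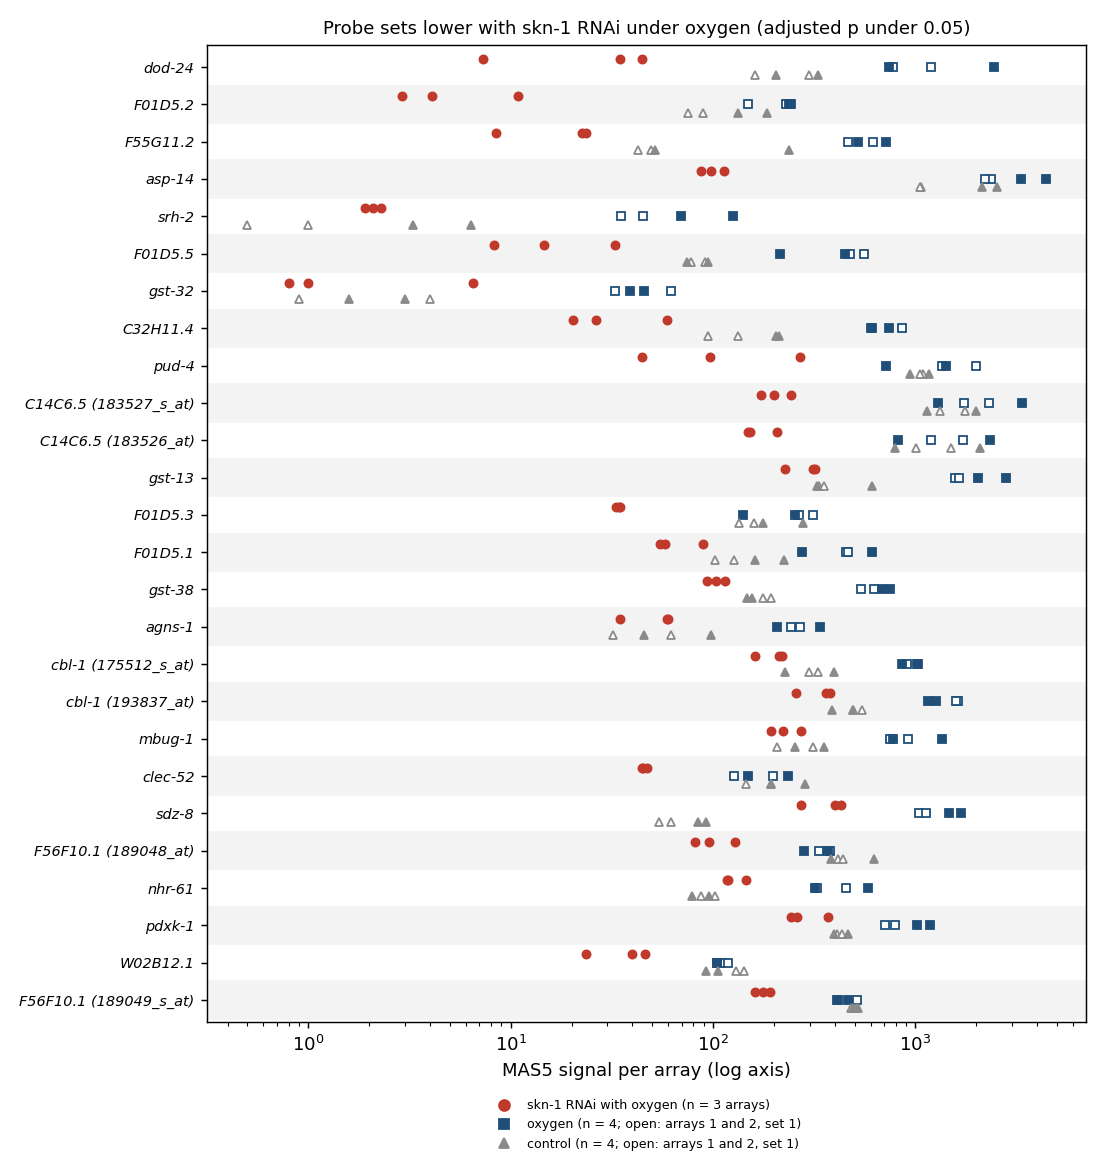
MAS5 signal per array, on a log axis, of the probe sets called lower with skn-1 RNAi and matching 1 gene. Red circles are skn-1 RNAi with oxygen, blue squares oxygen and grey triangles control, with open symbols for arrays of set 1. All red circles lie left of all blue squares in each row, and the grey triangles fall near the circles in some genes and near the squares in others.

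The called decreases also held enzymes of amino acid and cofactor metabolism. The gene cbl-1, for a cystathionine beta-lyase of sulfur amino acid metabolism, was called on both of its probe sets. Its first probe set read 211, 219 and 162 in RNAi worms, against 1012, 911, 863 and 1034 in oxygen and 330, 298, 398 and 226 in control. Oxygen arrays of cbl-1 stood above all others, and RNAi arrays lay below all control arrays but were not called against them (adjusted p = 0.168). The decrease was 4.87-fold (log2 −2.28 ± 0.24, adjusted p = 0.00367) and 4.83-fold against oxygen 3 and 4, and the second probe set fell by 2.08 on the log2 scale. The gene pdxk-1, for the kinase that makes pyridoxal phosphate, a cofactor of such lyases, read 242, 260 and 370 with RNAi, 711, 795, 1173 and 1014 in oxygen and 398 to 466 in control. It fell 3.17-fold (log2 −1.67 ± 0.24, adjusted p = 0.025) with −1.93 against oxygen 3 and 4, and 4 of 11 fits with 1 array left out kept the call. Of the 20 tested genes listed for cysteine, sulfide and glutathione synthesis none was called, and their median was −0.13. That list holds neither cbl-1 nor pdxk-1. The cysteine synthase-like gene cysl-2 had the smallest adjusted p of these, with 117, 157 and 249 against 643, 653, 862 and 903 in oxygen (adjusted p = 0.0812). The sulfide oxidase gene sqrd-1 ran the other way, with 141, 96.9 and 159 against 56.9, 57.7, 60.2 and 40.4 (adjusted p = 0.106). Among 26 antioxidant enzymes 0 were called, 8 lay wholly below oxygen (5.67% of all genes) and 1 wholly above (10.7%), and their median was −0.18, beside 0.19 for all genes. The catalase gene ctl-2 in that list read 760, 704 and 408 with RNAi and 1392, 1473, 1324 and 918 in oxygen, a difference of −1.06 ± 0.29 that missed the threshold (adjusted p = 0.286).

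Of the called decreases, asp-14, for an aspartyl protease, shared the smallest adjusted p with gst-38 (0.000963). Its signals were 87.1, 113.2 and 98.1 in RNAi worms, against 2359, 2195, 3327 and 4392 in oxygen worms and 1070, 1058, 2533 and 2124 in control worms. Oxygen and control arrays overlapped, and the 3 RNAi arrays lay together far below both. The difference of −4.90 ± 0.38 became −5.37 ± 0.20 in the blocked fit and −5.27 ± 0.23 against oxygen 3 and 4, and each of the 24 alternatives kept the call. None of the other 8 tested genes of the aspartyl protease list was called, and the list's median was 0.02. The protease-like gene hrg-7, called higher and described below, was not in that list. Cathepsin-like cysteine proteases had 0 calls among 12, though cpr-8 read 307, 508 and 413 with RNAi against 114.1, 82, 36.4 and 139.4 in oxygen (2.27 ± 0.44, adjusted p = 0.0898).

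Genes with a CUB-like domain, a group whose transcripts are known to respond to infection, held 3 called decreases among 16. In dod-24 the signals were 44.5, 34.8 and 7.3 in RNAi worms, 1189, 771, 742 and 2441 in oxygen worms and 161, 298, 204 and 332 in control worms. RNAi 3 was the lowest array, and the difference of −5.66 ± 0.64 became −4.85 without it, still called. RNAi 2 and 3 of dod-24 lay below the 40th percentile of their arrays, so these differences do not measure a fold. F55G11.2 read 8.5, 22.5 and 23.5 with RNAi, 613, 467, 712 and 520 in oxygen and 42.4 to 236 in control, a decrease of at least 15.2-fold. C32H11.4 read 26.3, 59.1 and 20.3 with RNAi, 606, 859, 740 and 607 in oxygen and 94.2 to 212 in control (log2 −4.46 ± 0.41, adjusted p = 0.00171). Its RNAi 1 and 3 were dim in the same way. In these 3 genes every RNAi array lay below every control array as well as every oxygen array, though F55G11.2 was not called against control (adjusted p = 0.0875). Against oxygen 3 and 4 the differences were −5.91 in dod-24 and −4.41 in C32H11.4, with adjusted p = 0.0995 and 0.0685, and the adjusted p of F55G11.2 was 0.058. The other 13 tested members were not called. The list's median was −0.03 over all arrays, −0.31 in the blocked fit and −0.38 against oxygen 3 and 4, beside 0.19, 0.00 and 0.00 for all genes. In 6 of the 16 all RNAi arrays lay below all oxygen arrays (5.67% of all genes) and in 1 above (10.7%). The blocked fit called 5 of the 16 lower (0.635% of all genes), the further members being F55G11.8 and ZK896.4, lower by 1.80 and 1.73 on the log2 scale.

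Some of the decreases lay close to each other on the chromosomes, in the gene order of the RefSeq annotation of assembly WBcel235. On chromosome II the genes F01D5.1, F01D5.2, F01D5.3 and F01D5.5 were all called. F01D5.2 read 4.1, 10.9 and 2.9 in RNAi worms, 148, 230, 238 and 242 in oxygen worms and 74.9 to 184 in control worms. F01D5.5 read 14.7, 32.7 and 8.3 with RNAi, 477, 554, 215 and 451 in oxygen and 74.5 to 94.1 in control. The decreases were at least 5.62-fold and at least 10.7-fold, since the RNAi arrays of both lay below the 40th percentile of their arrays. F01D5.3 fell at least 6.21-fold and F01D5.1 fell 6.59-fold (log2 −2.72 ± 0.35, adjusted p = 0.013). Against oxygen 3 and 4 F01D5.1 differed by −2.64, and none of the 4 genes was called. The other 3 tested genes of the F01D5 clone were not called. On chromosome IV, F55G11.8, dod-22, F55G11.2, mbug-1 and dod-17 are neighbours. The gene between the first pair, dod-22, differed by 0.02, with 206, 108 and 187 in RNAi worms and 137, 170, 110 and 250 in oxygen worms, and its groups overlapped. In mbug-1 the values were 193, 221 and 273 against 923, 746, 778 and 1347 in oxygen (4.07-fold, adjusted p = 0.0186), and the 206 to 355 of control covered part of the RNAi range. For dod-17 they were 39.3, 38.8 and 4.5 against 325, 265, 235 and 418, a difference of −4.0 ± 0.71 whose adjusted p was 0.069, or 0.0546 in the blocked fit.

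**Figure D3:**
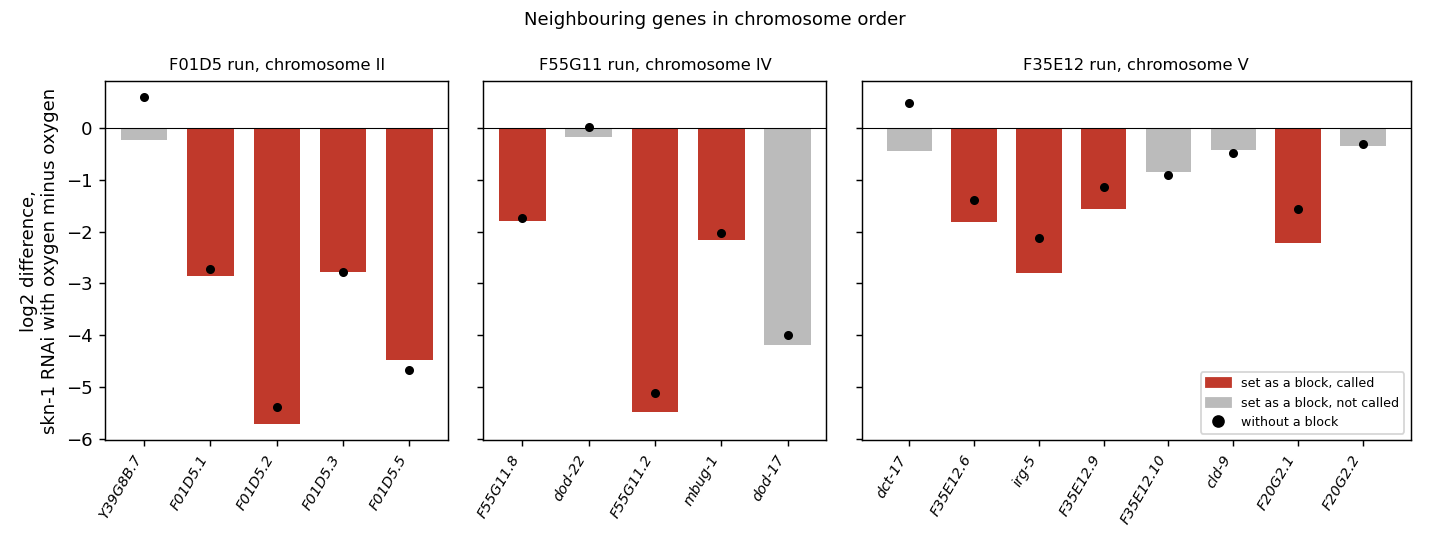
Log2 difference of skn-1 RNAi with oxygen minus oxygen in 3 stretches of tested neighbouring genes on chromosomes II, IV and V. Bars give the value in the blocked fit, red where called, and black dots the value without a block. Called genes stand beside uncalled ones in each stretch, for example dod-22 between F55G11.8 and F55G11.2. Bars of F01D5.2, F01D5.3, F01D5.5 and F55G11.2 are fitted against dim RNAi arrays and do not measure a fold.

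Other decreases called in the blocked fit lay within 3 genes of each other in the annotation. The pairs gst-14 and gst-12 on chromosome II, and srr-4 and cpt-4 and C55A6.6 and sdz-8 on chromosome V, had no other gene between them. On chromosome II gst-31, which was not called, and an untested gene lay between gst-39 and gst-32, and D1022.4, which differed by 0.05, lay between D1022.3 and D1022.5. On chromosome V the neighbours F35E12.6, irg-5 and F35E12.9 were followed by F35E12.10 and cld-9, neither of them called, and then by the called F20G2.1. In the infection response gene irg-5 the RNAi arrays read 383, 709 and 564 against 1377, 1482, 3010 and 4711 in oxygen. Here set 1 lay below set 2 within the oxygen group, and the difference of −2.12 (adjusted p = 0.256) was −2.79 in the blocked fit (adjusted p = 0.00592). Related neighbours can share probe matches, and the part of shared matches in these values was not tested.

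Other called decreases were in single genes of various kinds. Both probe sets of C14C6.5 fell, 10.0-fold and 8.42-fold, with 173, 243 and 200 on the brighter one in RNAi worms against 2298, 1734, 1290 and 3344 in oxygen worms and 1140 to 1984 in control worms. Oxygen and control worms did not separate in C14C6.5, and RNAi worms stood apart from both. The same order held in pud-4, named as a protein raised in daf-2 mutants, where RNAi arrays read 44.8, 96.2 and 270 against 1351, 1995, 1419 and 719 in oxygen and 944 to 1173 in control. Its call was kept in 3 of the 11 fits with 1 array left out. The C-type lectin gene clec-52 read 47.4, 45.2 and 44.8 with RNAi, 198, 126, 236 and 148 in oxygen and 145 to 285 in control (3.75-fold, adjusted p = 0.0285). The call of clec-52 was kept in 3 of the 11 fits with 1 array left out. It was the single called gene of the 97 tested lectins, and a probe set that matches both clec-2 and clec-3 was called beside it at 3.2, 2.8 and 1.9 against 37.6, 57.3, 77.4 and 83.8. Against oxygen 3 and 4 the log2 differences were −3.35 in C14C6.5, −3.26 in pud-4 and −2.03 in clec-52, none of them called. F56F10.1 fell on both of its probe sets, 3.38-fold and 2.55-fold, and W02B12.1 fell 3.10-fold, a call kept under 6 of the 24 alternatives.

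Receptor genes were among the decreases too. The nuclear hormone receptor gene nhr-61 read 117.6, 118.9 and 144.8 in RNAi worms, 325, 455, 583 and 320 in oxygen worms and 78.3 to 102 in control worms (3.22-fold, adjusted p = 0.0285). It was 1 of 138 tested receptors of that family, which had a median of −0.04, and its call was kept in 2 of the 11 fits with 1 array left out. The chemoreceptor-like gene srh-2 read 2.3, 1.9 and 2.1 with RNAi, 35, 45.2, 126 and 69.1 in oxygen and 0.5 to 6.4 in control. RNAi and control arrays of srh-2 were dim, so the decrease is at least 1.63-fold (adjusted p = 0.0412), and its second probe set was not called (adjusted p = 0.144). The called probe set entered the test only through its oxygen arrays, so its direction was partly fixed by the filter. Its call was kept in 3 of the 11 fits with 1 array left out. The gene agns-1 fell 5.23-fold (adjusted p = 0.0401), with 59.4, 59.7 and 34.6 against 270, 243, 207 and 337 in oxygen. Its call was kept in 2 of the 11 fits with 1 array left out, with adjusted p up to 0.186.

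Heme transport genes supplied 3 of the 7 called increases. Worms do not make heme and take it from food; HRG-1 and HRG-4 carry it across membranes, HRG-3 delivers it between tissues, and HRG-7 is a protease-like signal between intestine and other tissues. Transcripts of this family are known to rise when heme is scarce. In hrg-1 the signals were 1794, 3164 and 2435 in RNAi worms, 481, 407, 331 and 452 in oxygen worms and 219.4, 130.2, 222.5 and 147.2 in control worms. The 3 groups of hrg-1 did not overlap, with RNAi highest and control lowest. The increase was 5.80-fold (log2 2.54 ± 0.29, adjusted p = 0.00556) and 6.2-fold against oxygen 3 and 4. In hrg-7 the RNAi arrays read 5800, 7534 and 7782, against 1130, 1525, 446 and 836 in oxygen and 2097, 1432, 1536 and 1523 in control. Here oxygen and control overlapped, and RNAi lay 7.79-fold above oxygen (log2 2.96 ± 0.38, adjusted p = 0.0118), with adjusted p = 0.0539, 0.0713 and 0.0659 without RNAi 1, 2 or 3. In hrg-4 they read 143, 130 and 170, against 31.3, 31.9, 36.4 and 28.2 in oxygen and 42.2 to 96.3 in control (4.60-fold, adjusted p = 0.0175). Oxygen arrays of hrg-4 all lay below control arrays, and the call was kept in 5 of the 11 fits with 1 array left out. Oxygen 3 and 4 of hrg-4 lay below the 40th percentile of their arrays, so the size of the 4.60-fold increase is uncertain.

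The fourth gene, hrg-3, read 220, 548 and 370 in RNAi worms, against 9.2, 6, 1 and 29.7 in oxygen worms and 0.5, 5.9, 7.4 and 3.3 in control worms. No oxygen or control array came near the RNAi values. All oxygen and control arrays of hrg-3 lay below the 40th percentile of their arrays, so it was at least 11.18-fold higher than in oxygen, and the test was not passed (adjusted p = 0.101). The gene hrg-3 entered the test only through its 3 RNAi arrays. A higher value with RNAi was thus partly fixed by the filter, and hrg-3 adds no support to the counts and median of the list. Of the 8 tested genes of the list, 3 were called higher (0.0515% of all genes), 5 lay wholly above oxygen (10.7%) and 0 wholly below (5.67%), and the median was 1.57 (1.41 in the blocked fit and 1.51 against oxygen 3 and 4). Against oxygen 3 and 4 the log2 differences were 2.63 in hrg-1, 3.51 in hrg-7 and 2.19 in hrg-4, with adjusted p = 0.0796, 0.058 and 0.06, and the adjusted p of hrg-3 was 0.169. For hrg-4 both of these oxygen arrays were dim, so 2.19 does not measure a fold. The members hrg-13 and hrg-9 were not called, at 0.93 and −0.73. The iron storage gene ftn-1, of another list, read 288, 555 and 432 with RNAi against 885, 830, 3727 and 799 in oxygen and was not called (−1.57 ± 0.78, adjusted p = 0.526).

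**Figure D4:**
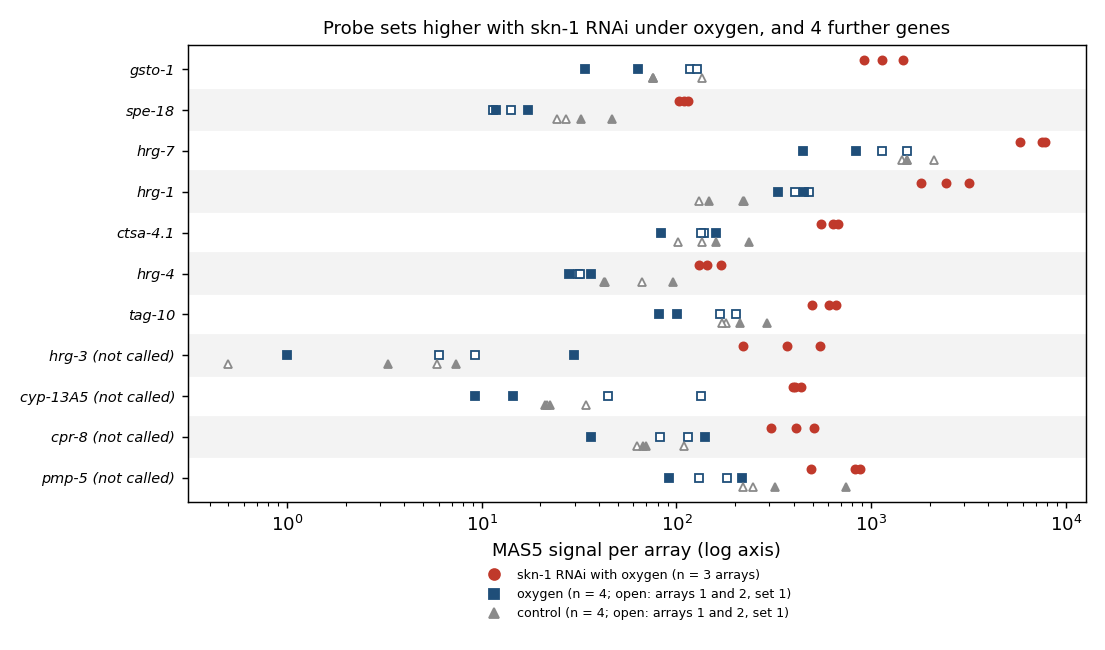
MAS5 signal per array, on a log axis, of the 7 probe sets called higher with skn-1 RNAi and of hrg-3, cyp-13A5, cpr-8 and pmp-5, which were not called. Red circles are skn-1 RNAi with oxygen, blue squares oxygen and grey triangles control, with open symbols for arrays of set 1. All red circles lie right of all blue squares in each row, while the blue squares of hrg-3 and cyp-13A5 are widely spread.

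The remaining called increases were in spe-18, ctsa-4.1 and tag-10. The sperm gene spe-18 read 109.9, 102.8 and 114.3 with RNAi, 11, 14, 17 and 12 in oxygen and 24, 27, 47 and 33 in control. All oxygen arrays lay below the 40th percentile of their arrays, so spe-18 was at least 3.43-fold higher (adjusted p = 0.00152), and each of the 23 alternatives in which it was tested kept the call. No other of the 37 tested sperm markers was called. Their median of 1.31 over all arrays became 0.23 in the blocked fit and 0.19 against oxygen 3 and 4, and the summed signal of the list ran from 33485 to 43952 in RNAi arrays, from 6854 to 45265 in oxygen arrays and from 5433 to 39130 in control arrays. The part of sperm or sperm RNA in the spe-18 value was not tested. The gene ctsa-4.1, for a cathepsin A-like carboxypeptidase, read 552, 679 and 639 against 139, 134, 83.7 and 159 in oxygen and 102 to 237 in control (4.96-fold, adjusted p = 0.0175). In tag-10 the called probe set read 609, 660 and 497 against 203, 168, 81.4 and 100 in oxygen (4.53-fold, adjusted p = 0.0373), with 6.47-fold against oxygen 3 and 4. Its call was kept in 2 of the 11 fits with 1 array left out. The brighter probe set was not called at 744, 883 and 892 against 221, 213, 295 and 315 (adjusted p = 0.187).

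In the blocked fit 81 further probe sets were called, 60 lower and 21 higher. In 61 of them (44 and 17) all RNAi arrays lay on 1 side of all oxygen arrays, as in 5.21% of all probe sets downward and 12% upward. The 81 were called on the same difference, so this pattern adds no support. Several belonged to groups described above. Antimicrobial genes were the invertebrate-type lysozyme gene ilys-2 (27.6, 34 and 37.5 against 188, 118, 438 and 272 in oxygen), the saposin-like spp-8 (389, 323 and 625 against 891, 978, 1335 and 1231) and, upward, the lysozyme gene lys-2 (5529, 6243 and 6728 against 3689, 4004, 3051 and 2235). Their block differences were −3.09, −1.65 and 1.29. The carnitine palmitoyltransferase gene cpt-4 was called on 1 of its probe sets, at least 3.75-fold lower because its RNAi arrays were dim, and not on the other (adjusted p = 0.0797). The cadmium tolerance transporter gene hmt-1 was lower by 1.47, while the small heat shock gene hsp-12.3 was higher by 3.25 and the muscle gene unc-89 by 1.95. In hsp-12.3 the RNAi arrays read 75.8, 64.5 and 108, against 29.7, 54.6, 8.1 and 5.3 in oxygen, so that the set 1 arrays lay nearer to RNAi than the set 2 arrays did. On a second, brighter probe set unc-89 was not called. None of these was called over all arrays without the block.

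The called decreases differed in where RNAi worms lay relative to untreated worms. The contrasts share arrays, so their values are only set side by side. With RNAi, 11 of the genes were also called below control (131 probe sets, 0.851%, were): asp-14, dod-24, C32H11.4, F01D5.2, F01D5.3, F01D5.5, C14C6.5, pud-4, clec-52, F56F10.1 and W02B12.1. In asp-14 the differences were −3.99 from control for RNAi worms and 0.91 for oxygen worms, the second of which was not called. In clec-52 they were −2.11 and −0.21. In C32H11.4 and F01D5.5, by contrast, oxygen worms were called above control, by 2.19 and 2.25. Oxygen worms exceeded control by 2.25 in dod-24 too, which was not called (adjusted p = 0.0691). In the rest of these genes oxygen was not called against control. Another 11 genes were not called against control: gst-13, gst-38, gst-32, cbl-1, pdxk-1, agns-1, mbug-1, nhr-61, srh-2, F55G11.2 and F01D5.1. Oxygen worms exceeded control worms in all of these, for example by 2.32 in gst-13, 1.94 in gst-38, 1.64 in cbl-1 and 2.17 in nhr-61, each of them called (507 probe sets, 3.29%, were called higher in that contrast). RNAi worms differed from control by −0.48, −0.70, −0.65 and 0.48 in these 4 genes. Both gst-32 and srh-2 entered the test only through oxygen arrays, so their place among these genes was partly fixed by the filter. In F55G11.2 and F01D5.1 RNAi worms differed from control by −2.11 and −1.16, which missed the threshold (adjusted p = 0.0875 and 0.109). Every RNAi array lay below every control array in both genes. The same held in gst-38, gst-13, pdxk-1 and both probe sets of cbl-1, none of them called against control. It held narrowly in gst-13 (317 against 328) and on the second probe set of cbl-1 (380 against 386). The share of all probe sets with this pattern was not counted, so it is not read as a level below control. In sdz-8 alone RNAi worms were called above control, by 2.33, against 4.19 in oxygen worms. All 7 increased genes were also called above control (383 probe sets, 2.49%, were), by 1.33 in hrg-4 to 3.78 in hrg-1. Control 1 and 2 belong to set 1. Blocking by set kept all of these calls of RNAi worms against control except that of hrg-4 (1.26, adjusted p = 0.0579).

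**Figure D5:**
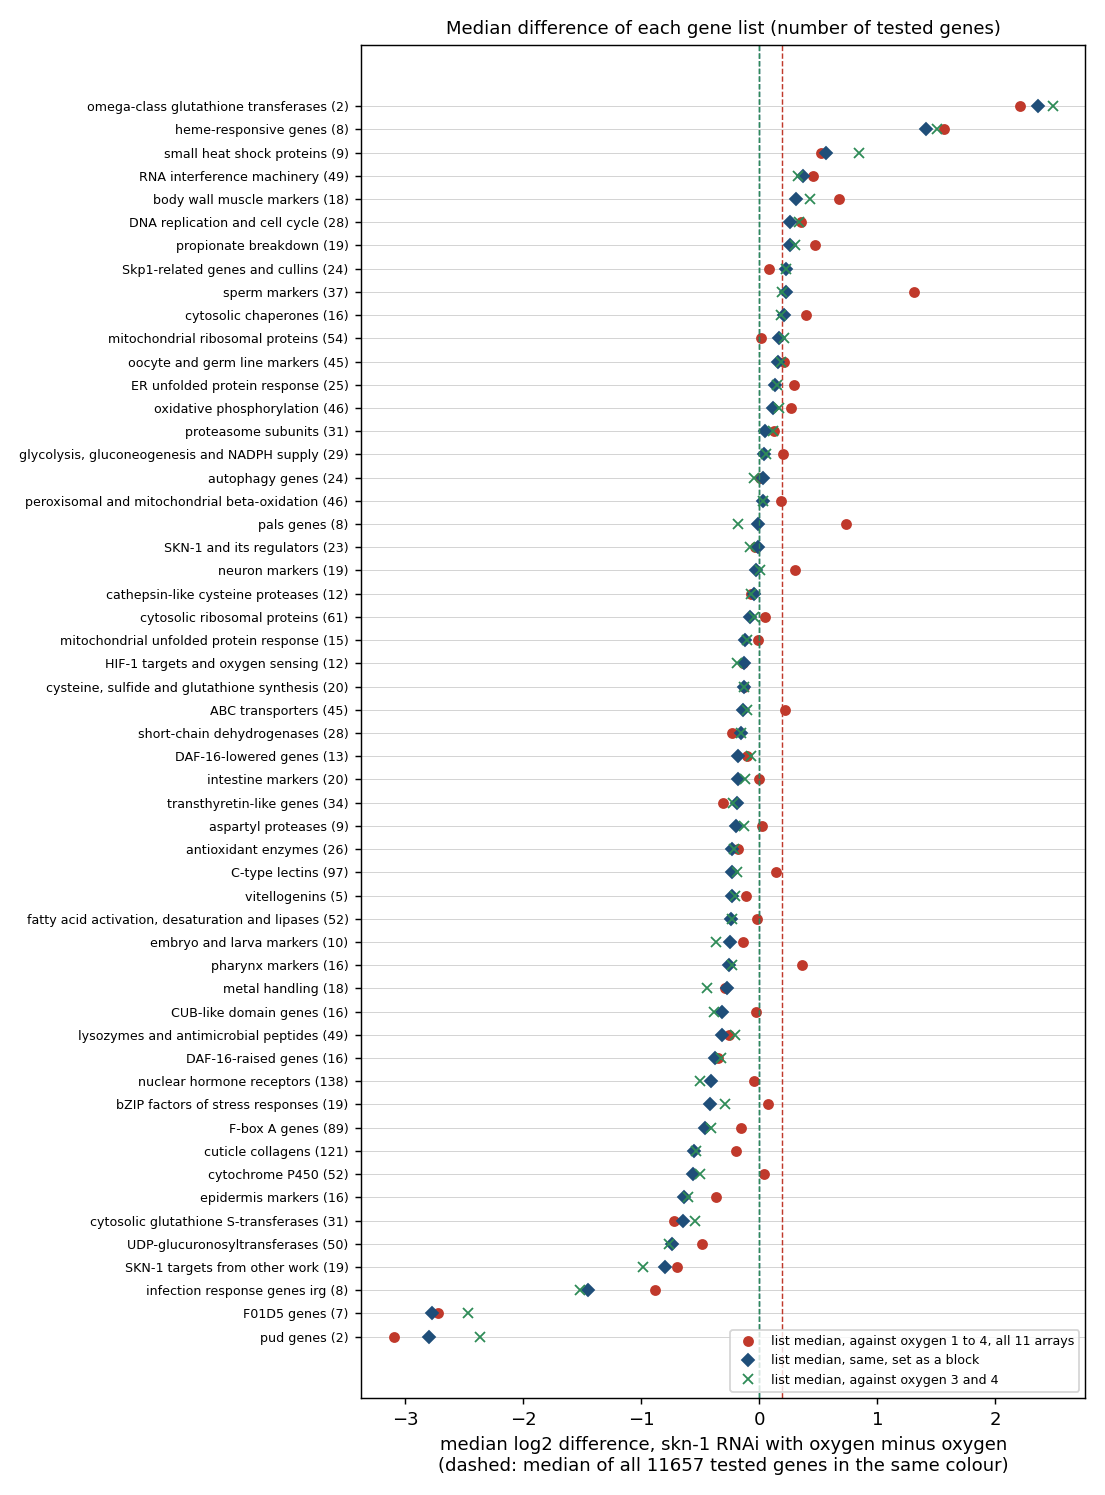
Median log2 difference of skn-1 RNAi with oxygen minus oxygen for each gene list, with the number of tested genes in brackets. Red circles are against all 4 oxygen arrays, blue diamonds the same in the blocked fit and green crosses against oxygen 3 and 4, and dashed lines give the median of all 11657 genes. The sperm and pharynx lists differ by the choice of oxygen arrays, whereas heme-responsive genes stay above 0 and cytosolic GSTs below 0 in all 3 settings.

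Gene lists outside these families were mostly without calls. Proteasome subunits, genes that SKN-1 can also drive when the proteasome fails, had 0 calls among 31 and a median of 0.13. Cytosolic ribosomal proteins had 0 among 61 (median 0.05) and oxidative phosphorylation had 0 among 46 (median 0.27). Small heat shock proteins had 0 among 9, with a median of 0.52, and hsp-16.41 in that list read 126, 138 and 586 with RNAi against 72.9, 85.2, 43.7 and 33.9 in oxygen (adjusted p = 0.358). Of 49 genes of the RNA interference machinery 0 were called. In 16 of these all RNAi arrays lay above all oxygen arrays (10.7% of all genes) and in 4 below (5.67%), and the median was 0.45 (0.37 in the blocked fit), against 0.19 (0.00) for all genes. In mut-7, the member with the smallest adjusted p, RNAi arrays read 596, 470 and 551, oxygen arrays 321, 298, 285 and 318 and control arrays 365 to 635 (0.81 ± 0.24, adjusted p = 0.324).

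Markers of tissues were examined beside these results. None of 20 intestine markers, 16 epidermis markers, 18 body wall muscle markers, 16 pharynx markers, 19 neuron markers or 45 oocyte and germ line markers was called. Intestine markers had a median of 0.00 (−0.18 in the blocked fit), below the 0.19 (0.00) of all genes. Their summed signal was 52430 to 63513 in RNAi arrays, 57477 to 75168 in oxygen arrays and 53429 to 89181 in control arrays. Body wall muscle markers had a median of 0.67 (0.31 in the blocked fit), beside 0.19 (0.00) for all genes, and 7 of the 18 lay wholly above oxygen (10.7% of all genes). Their summed signal was 33854 to 40839 in RNAi arrays, 21215 to 31083 in oxygen arrays and 19866 to 35138 in control arrays, so that RNAi and oxygen arrays did not overlap. Epidermis markers had a median of −0.37 (−0.64 in the blocked fit), also below that of all genes. Their summed signal was 14116 to 30416 in RNAi arrays, 17924 to 33810 in oxygen arrays and 34430 to 54999 in control arrays. The part of tissue content in the called differences was not tested.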

How the data were processed

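The deposited values are MAS5 signal intensities, made by the submitters with GCOS 1.4 (MAS5), per the submitters' processing notes; the genome build and further steps are not given in the sources used here. Each array holds 22625 probe sets. The 77 manufacturer controls were left out, and a probe set was tested when its signal was at or above that array's 40th percentile on at least 3 of 11 arrays (15389). 1 signal of 0 was set to 0.1. Limma 3.58.1 in R 4.3.3 was fitted to log2 intensity of all 11 arrays with group as the only term, and p-values were adjusted by Benjamini-Hochberg over all tested probe sets. The number of arrays limits the precision. Sets of arrays were defined from the median signal of 24 poly-A spike-in probe sets, with a boundary at 50. Where all arrays of a group lay below their 40th percentile, a fold is a lower bound.

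Symbols come from the platform annotation: 20766 probe sets matched 1 gene, 887 several and 895 none, and 20701 gene IDs were found in RefSeq (WBcel235), used for names and gene order only. Genes in lists had 1 probe set each, the one with the highest mean signal.

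Members and lists were chosen with earlier results of these data known. Named genes are skn-1, gst-4, every called gene, up to 4 members per list by adjusted p, and the 15 largest changes each way of the blocked fit. Chromosomal neighbours, second probe sets and the genes gsto-3, hrg-9, hrg-13, gst-12, gst-14, gst-39, F56D5.3, ZK896.4 and dod-17 were added after their values were seen. Replicate numbers did not pair the samples: same-numbered arrays had correlations of deviations of −0.0045, −0.0988 and −0.128. Alternatives changed the normalization, filter, pseudocount, variance trend, blocks and arrays used. Promoter sequences are not analysed here.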

Additional observations from a re-analysis of the deposited data

Results flagged for a closer look

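Single arrays that stood apart from their own group were looked for among the 97 probe sets of named genes, in oxygen and control groups of 4 arrays each. In 10 of 194 groups the gap between the extreme array and its nearest neighbour exceeded Dixon's critical share of the group's range, and chance gives about 1 in 20.

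Oxygen arrays stood apart in 3 of them. Oxygen 3 read 3727.4 for ftn-1, against 799.1 to 884.8 on the other arrays. Oxygen 1 read 148.3 for F01D5.2, where the other arrays read 229.9 to 241.8. Oxygen 4 read 40.4 for sqrd-1, below the 56.9 to 60.2 of the rest.

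The other 7 were control arrays, 5 of them control 3. That array was high for F55G11.2 at 236.2 (others 42.4 to 51.9), for gst-13 at 613.1 (327.8 to 352.8), for mut-7 at 635 (365.4 to 398.2), for the first skn-1 probe set at 796.7 (442.2 to 454.3) and for sqrd-1 at 122 (83.7 to 89.1). Control 1 read 134.6 for gsto-1, against 75.6 to 76 on the other arrays, and control 2 read 34.2 for cyp-13A5, against 21 to 22.3. Without control 3 the counts of called probe sets were 27 lower and 7 higher. Groups of 3 arrays, such as skn-1 RNAi with oxygen, were not examined in this way.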

How the results depend on the processing

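The 35 called probe sets kept their direction under all alternatives in which they were tested. Against 28 lower and 7 higher calls, blocking by set gave 88 and 28, quantile normalization 50 and 10, median centring 26 and 2, no filter 16 and 4, a filter at the 60th percentile 43 and 22, log2(signal + 16) 47 and 20, and a variance trend 43 and 17. The fit of the 7 arrays of set 2 and that of 5 arrays each gave 10 and 8, and the fit without control arrays 16 and 6. Of the 35 calls, 10 remained within set 2, 8 with 5 arrays, 19 without controls, 19 with median centring and 20 without a filter. Lower calls made up 80% of all calls, against 92.9% with median centring, 55.6% within set 2 and with 5 arrays, 55.8% with replicate number as a block and 44.8% with the set block and median centring. Blocking by set together with median centring gave 39 and 48, and together with quantile normalization 76 and 40; both were chosen after seeing the data. Leaving out 1 array gave 13 to 43 lower and 3 to 14 higher calls and kept 16 to 35 of the 35; the lowest counts came without skn-1 RNAi 1 and the highest without control 4. The lower count moved by over 1.5 times without RNAi 1 (13), oxygen 1 (14), oxygen 2 (16), oxygen 3 (17) and control 4 (43), and the higher count without RNAi 1 (3), RNAi 2 (3) and control 4 (14). The cause of these changes was not tested.

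With replicate number as a block 24 were lower and 19 higher, and 27 of the 35 calls remained. These numbers do not pair the samples, as the correlations of their deviations showed.

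The third skn-1 probe set changed sign, with 0.65 over all arrays, −0.48 when blocked by set, −0.41 both within set 2 and with 5 arrays, −0.18 with the block and median centring and −0.51 with the block and quantile normalization. It was called in none of these. Of the other values of the 35 called probe sets, skn-1 and gst-4 under alternatives, 674 stayed on their side of the threshold and 253 lost their call.

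Signals below the 40th percentile of an array limit what can be read: gst-32, srh-2, F01D5.2, F01D5.3, F01D5.5, F55G11.2, cpt-4, gst-14 and the called probe sets of several genes (dim with RNAi), and spe-18 and hrg-3 (dim in oxygen), have only bounds against oxygen. In gst-32, srh-2, gst-14 and hrg-3 control arrays were dim too. These genes entered the test only through oxygen arrays, or in hrg-3 through RNAi arrays, so their differences were partly fixed by the filter. In cyp-13A5 and hrg-4 oxygen 3 and 4 were dim, which limits the comparison with these arrays alone and makes the fold over all arrays uncertain. In dod-24 and C32H11.4 part of the RNAi arrays were dim, so their differences do not measure a fold.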

Other observations

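In 4 further gene lists no member was called over all arrays, and in most members of each skn-1 RNAi with oxygen overlapped oxygen. No test of a list was run. In 16 of 89 F-box A genes all RNAi arrays lay below all oxygen arrays and in 3 above, with a median of −0.15 (−0.46 with the set as a block). Among 19 genes of propionate breakdown 7 lay wholly above oxygen and 0 below, with a median of 0.47 (0.26 in the blocked fit). Genes of the unfolded protein response of the endoplasmic reticulum lay wholly above oxygen in 9 of 25 and below in 1, with a median of 0.30 (0.13). Of 28 genes for DNA replication and the cell cycle 8 lay wholly above and 0 below, with a median of 0.35 (0.26). For all genes these shares were 5.67% below and 10.7% above, and the median was 0.19 (0.00).

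The gene pud-3, a relative of pud-4, read 16.7, 19.3 and 43.8 with skn-1 RNAi and oxygen, 142.4, 670.5, 69.5 and 64.2 in oxygen and 1302 to 2381 in control. It was not called against oxygen (−2.57, adjusted p = 0.322), where its arrays of set 1 exceeded those of set 2, and it was called against control (−6.02, adjusted p = 0.0027).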
